A study of Homo sapiens with 11 samples.

Results

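The collagen chains are the genes whose symbol in the probe-to-gene table is COL, a number, A and a number, such as COL4A1. They made up 36 of the 14941 genes named for a probe of the array, with 42 of its 22464 probes, and of these 12 probes for 9 genes were fibrillar chains, 6 probes for 6 genes were the basement membrane chains of type IV, and 24 probes for 21 genes were other collagens. Several probes were present for 5 genes, with 2 each for COL3A1, COL8A1, COL9A2 and COL12A1 and 3 for COL27A1, and these are numbered below. A further 8 of the 44 collagen genes of the GRCh38.p14 annotation, among them COL17A1 of the hemidesmosome, had no probe named for them alone and were not analysed here.

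RT4 is an established human cell line from a bladder transitional cell papilloma, an early premalignant growth. The study asked how gene expression of these cells responds when they are moved from plastic to Matrigel, a basement membrane gel from a mouse tumor that the study calls cancer-remodeled extracellular matrix (crECM). Cells from plastic were measured on 2 arrays, and cells kept on crECM were measured on 9 arrays, a single one at 12 h (day 0.5) and on days 1, 2, 3, 4, 6, 7, 8 and 9. The title of plastic replicate 2 ends in "Matrigel next", which is not explained, and that array was taken as plastic. No treatment other than the substrate is named. The gel cultures had McCoys medium with 10% fetal calf serum and were released with Matrisperse, and the harvest from plastic is not given in the sources used here. The 9 crECM arrays are time points and not replicates, and nothing says that the plastic arrays came from separate cultures, so the p-values measure only the spread between these arrays.

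Collagens are proteins whose chains wind into a triple helix, which needs glycine at regular short intervals along the chain. Fibrillar chains such as those of types I, II, III and V assemble into the cross-striated fibers of connective tissue and are made mostly by fibroblasts, while type IV chains form the sheet of the basement membrane on which epithelial cells such as the urothelium rest. The other collagens coat fibrils (FACIT collagens), form beaded filaments (type VI) or anchoring fibrils (type VII), span the cell membrane, or carry sugar chains at the basement membrane (types XV and XVIII, the multiplexins).

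The 6 type IV genes lie in 3 pairs, and the genes of a pair start head to head on opposite strands, so that each pair shares the stretch between its start sites. Only the gaps of the first and second pair lie within the promoter windows used here, and these gaps are shown. They were read from the promoter windows of RefSeq on GRCh38.p14, and the + strand is printed 5′ to 3′. The first gap lies upstream of the first exons of COL4A1 (minus strand) and COL4A2 (plus strand) at chr13:110307158-110307283 and has 126 bases. The second lies between COL4A4 (minus strand) and COL4A3 (plus strand) at chr2:227164489-227164623 and has 135 bases. Capitals mark GC boxes (GGGCGG, or CCGCCC on the other strand) and CCAAT boxes (CCAAT, or ATTGG on the other strand).
COL4A1 and COL4A2: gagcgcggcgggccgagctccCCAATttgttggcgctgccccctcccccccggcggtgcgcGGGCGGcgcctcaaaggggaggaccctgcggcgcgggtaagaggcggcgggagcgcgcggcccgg
COL4A4 and COL4A3: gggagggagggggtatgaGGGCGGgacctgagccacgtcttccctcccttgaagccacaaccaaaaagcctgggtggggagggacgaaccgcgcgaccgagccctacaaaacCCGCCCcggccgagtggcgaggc
The COL4A1 and COL4A2 gap had 1 GC box, 1 CCAAT box and a GC content of 80.2%. The COL4A4 and COL4A3 gap had 2 GC boxes, no CCAAT box and a GC content of 68.1%. COL4A5 and COL4A6 start 379 bases apart, farther than the windows reach. Over windows of 300 bases at each start site, a GC box was found in 55.9% of 34 windows of 26 collagen genes and in 45% of all 35116 windows, a CCAAT box in 29.4% and 34.6%, and a TATA box (TATAAA on either strand) in 17.6% and 11.5%. A match to these letters is a description and not a binding site.

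The values are noise SDs above the zero point of each array, as the authors had brought them to a shared scale with a robust regression, and a probe counted as expressed at 3 SD. This adjustment set the floor of the 2 substrates at different raw intensities. A deposited value of 3 SD corresponded to raw intensities of 13.3 and 9.58 in the plastic samples, which is 0.249 and 0.191 SD of the raw noise. On crECM it corresponded to 52.2 at the lowest and 136 at the highest, or 0.755 to 2.74 SD of the raw noise. Whole arrays were dimmer on plastic, with raw medians of 162 and 140.45 against 224 to 482 on crECM. Low values on plastic therefore lay within the raw noise, and a fold given below as "at least" is a bound only on the deposited scale with its floor of 3 SD. The handling of the arrays cannot be told apart from the substrate. By group mean, 34 of 42 collagen probes (81%) were above 3 SD on plastic and 32 (76.2%) on crECM, beside 84.8% and 82.9% of all probes. Smell and taste receptor genes, taken as a reference list from other tissues, had 56 of 60 probes (93.3%) above 3 SD on plastic and 46 (76.7%) on crECM, so a value above 3 SD does not by itself show that a collagen was expressed. With 3 SD of the raw noise as the limit, 18 to 24 collagen probes passed per plastic array and 30 to 37 per crECM array. The plot of the deposited values shows these levels for every probe.

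**Figure D1:**
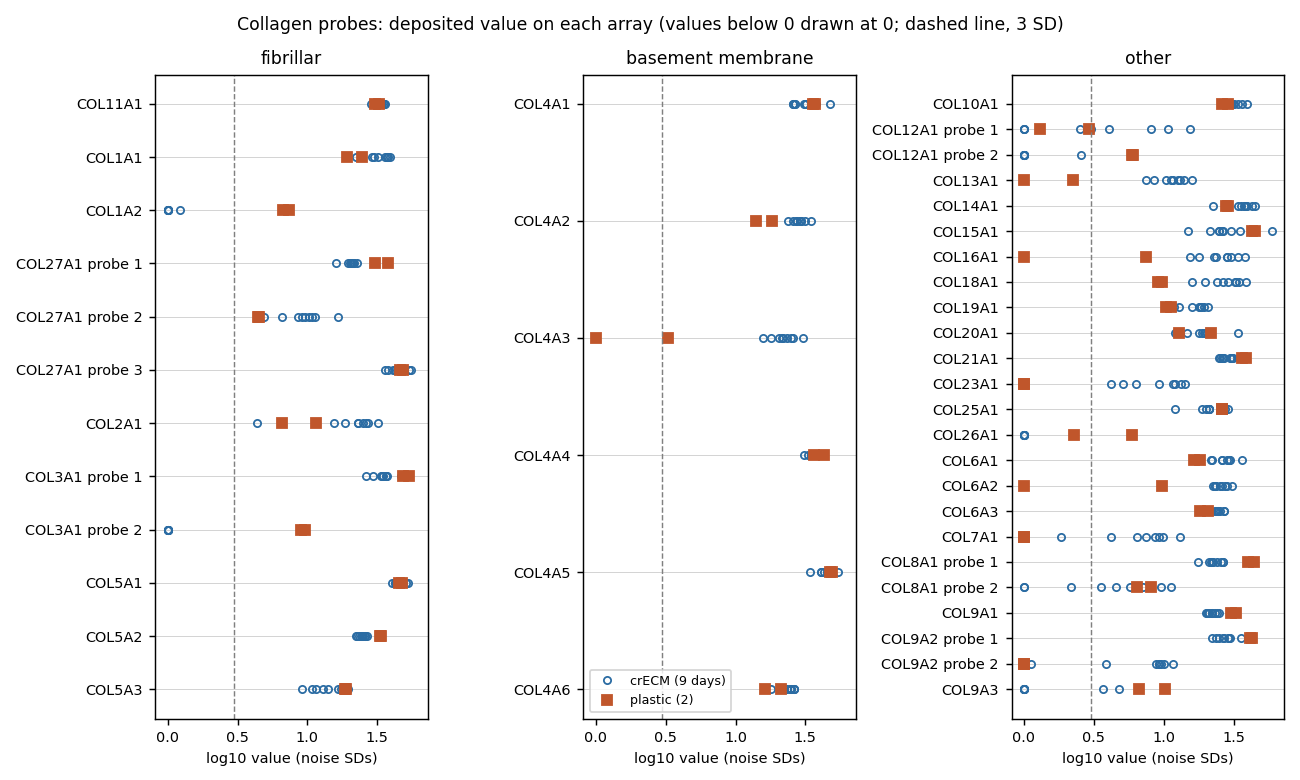
Deposited value of the 42 collagen probes on each array, as log10 of noise SDs, for the fibrillar, basement membrane and other chains. Filled squares are the 2 plastic arrays, open circles the 9 crECM arrays, the dashed line marks 3 SD, and values below 0 are drawn at 0. COL4A3, COL6A2 and COL16A1 had one plastic array near or above the line and one far below it, while their 9 crECM arrays lay to the right of both.

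Between plastic and crECM, 41 of the 42 collagen probes were tested, and COL26A1, above 3 SD on 1 array only, was not. Of these, 11 rose and 11 fell on crECM and 19 did not pass (limma on log2 values, those under 3 SD set to 3 SD, Benjamini-Hochberg adjusted p under 0.05 over all 21480 probes tested). That is 53.7% of the collagen probes beside 45.2% called among all probes, of which 22.8% rose and 22.4% fell, so the share of collagens called was near that of the array. Their median log2 change was 0.08, beside 0.06 over all probes. Of the fibrillar probes 2 rose, 5 fell and 5 did not pass, with a median of -0.26. Of the type IV probes 2 rose, none fell and 4 did not pass, with a median of 0.13. Of the 23 other probes tested 7 rose, 6 fell and 10 did not pass, with a median of 0.31. The classes are small, and a difference between them was not tested. In bulk RNA, fewer cells that express a gene and less RNA per cell cannot be told apart. The plot of log2 changes by class gives each probe with its standard error.

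**Figure D2:**
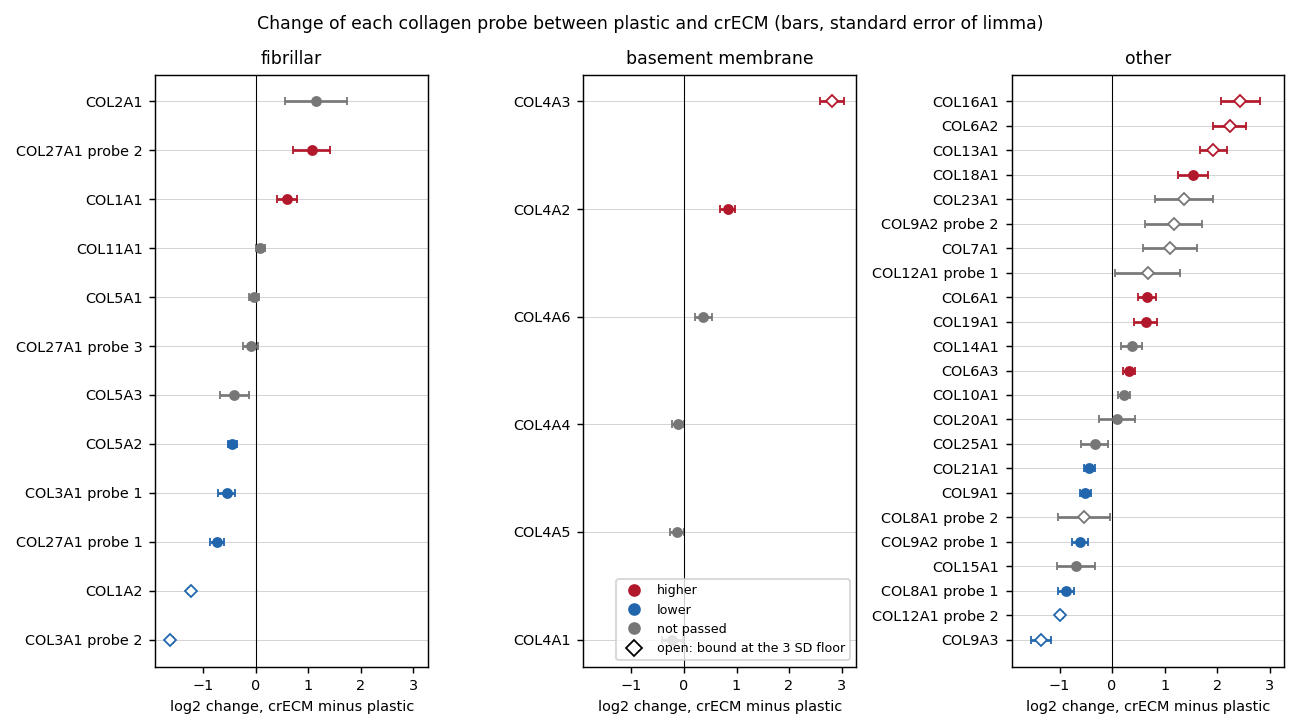
Log2 change between plastic (2 arrays) and crECM (9 arrays) for the 41 tested collagen probes, positive where crECM was higher, with the standard error of limma as bars. Red marks probes that rose, blue probes that fell and gray probes that did not pass. Open diamonds mark changes with an array of the lower group under 3 SD. They are lower bounds, on the deposited scale, only where no array of the higher group was under 3 SD too. Their order depends on the floor: COL4A3 was at 2.82 here and at 1.55 with rebuilt values, below COL18A1 at 1.84.

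Type IV collagen is the network of the basement membrane, and its chains did not move together. COL4A3, a chain of the specialized basement membranes of kidney, lung and inner ear, was at 3.29 SD on plastic replicate 1 and under 3 SD on replicate 2, and at 15.6, 21.9 and 30.6 SD as lowest, median and highest value on crECM. Every crECM array was above both plastic arrays. On the deposited scale this order held for 10 of 42 collagen probes and 21.5% of all probes. The reverse held for 12 of 42 and for 25.3%. COL4A3 rose at least 7.04-fold (log2 change 2.82 with a standard error of 0.23, adjusted p = 1.7e-06, limma) against the deposited floor. The size depends on the scale, and the call was kept at 2.93-fold with values rebuilt from the raw intensities (log2 change 1.55), 3.01-fold with quantile normalization and 4.42-fold with a floor of 5 SD. COL4A2, one of the chains found in nearly all basement membranes, was at 18.4 and 13.9 SD on plastic and at 23.8, 28.8 and 34.5 SD on crECM, again without overlap. It rose 1.78-fold (log2 change 0.83 with a standard error of 0.14, adjusted p = 0.00067, limma).

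The other 4 chains overlapped between the substrates. COL4A1, the usual partner of COL4A2 in the triple helix, was at 35.6 and 36.9 SD on plastic and at 25.6, 31 and 47.3 SD on crECM. Its log2 change was -0.23, with an adjusted p of 0.38 (limma). COL4A4, a partner of COL4A3, was at 42.9 and 36.2 SD on plastic and at 30.9, 36.7 and 41.4 SD on crECM, with a log2 change of -0.12 (adjusted p = 0.41, limma). COL4A5, which joins either COL4A3 and COL4A4 or COL4A6, had a log2 change of -0.13 (adjusted p = 0.43, limma). COL4A6 was at 21 and 16.2 SD on plastic and at 17.9, 24.8 and 26.4 SD on crECM, with a log2 change of 0.37 (adjusted p = 0.076, limma). COL4A6 was called higher with values rebuilt from the raw intensities (log2 change 0.69, adjusted p = 0.0042, limma), and without the regression between arrays all 6 type IV probes were higher, where the median of all probes itself moved to 1.07.

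Within an array the regression is shared by both chains of a pair, so the difference between them was compared between the substrates, on the log2 scale with the floor of 3 SD. COL4A2 minus COL4A1 was -0.95 and -1.40 on plastic and -0.69, -0.14 and 0.41 as lowest, median and highest on crECM. All 9 crECM arrays lay above both plastic arrays, and the mean difference was 1.06 (two-sided exact permutation test over all 55 choices of 2 arrays, p = 0.0182, the smallest it can give, and 0.0273 adjusted over 3 pairs). COL4A3 minus COL4A4 was -3.70 and -3.59 on plastic and -1.23, -0.70 and -0.20 on crECM. It also lay higher on every crECM array, by 2.93 in the mean (exact permutation p = 0.0182, adjusted 0.0273). COL4A3 lay within the raw noise on plastic, so this size is set by the floor, and it was 1.58 with rebuilt values. COL4A5 minus COL4A6 was 1.17 and 1.60 on plastic and 0.37, 0.87 and 1.36 on crECM, with a mean difference of -0.50 that did not pass (exact permutation p = 0.0909). The slope of the regression differed between the arrays, so these differences depend on it. With quantile normalization none of the 3 pairs passed after adjustment (0.0818 for COL4A2 and COL4A1, 0.0545 for COL4A3 and COL4A4 and 0.418 for COL4A5 and COL4A6). COL4A3 minus COL4A4 still had the smallest p of the test there (exact permutation p = 0.0182). Its adjusted 0.0545 is the lowest possible when no other pair reaches that p. With rebuilt values all 3 pairs passed, each at 0.0182.

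Type VI collagen forms beaded filaments close to the cell surface, and each of its 3 measured chains was called higher, beside 22.8% of all probes. Of the 3 chains, COL6A2 alone was called in all 21 alternatives. COL6A2 was at 9.75 SD on plastic replicate 1 and under 3 SD on replicate 2, and at 22.6, 25.2 and 30.9 SD on crECM, with no overlap. It rose at least 4.72-fold (log2 change 2.24 with a standard error of 0.32, adjusted p = 0.00017, limma). With rebuilt values it was 3.34-fold (log2 change 1.74) and with quantile normalization 2.39-fold. The plastic arrays differed widely here, and the log2 change was 1.39 without replicate 2 and 3.09 without replicate 1, called in either case. COL6A1 was at 18.2 and 16.4 SD on plastic and at 21.7, 28.3 and 36.4 SD on crECM, and rose 1.59-fold (log2 change 0.67 with a standard error of 0.17, adjusted p = 0.0077, limma). COL6A3 was at 18.2 and 20.9 SD on plastic and at 21.5, 24.6 and 27.2 SD on crECM, without overlap but with a narrow gap, and rose 1.24-fold (log2 change 0.31 with a standard error of 0.12, adjusted p = 0.044, limma). The calls of COL6A1 and COL6A3 were lost with quantile normalization (adjusted p = 0.058 and 0.32) and without a plastic array, for COL6A1 without replicate 2 (0.093) and for COL6A3 without replicate 1 (0.25). COL6A3 was called in 11 of 21 alternatives, and its call was also lost with array weights (0.076) and without any one of 7 crECM arrays (0.054 to 0.064).

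**Figure D3:**
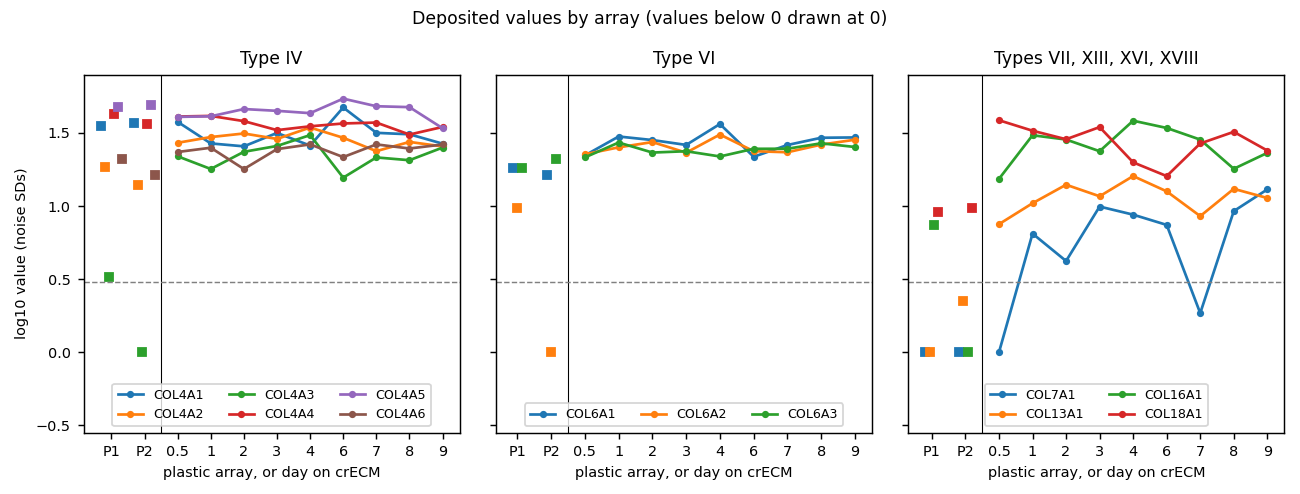
Deposited value, as log10 of noise SDs, of the type IV, type VI and 4 other chains on plastic arrays 1 and 2 (P1 and P2, squares) and on crECM by day (circles joined by lines), with the dashed line at 3 SD and values below 0 drawn at 0. COL4A3, COL6A2 and COL13A1 were above both plastic arrays from 12 h on, and COL7A1 was under 3 SD at 12 h and on day 7.

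Of the remaining subclasses, 2 of 11 FACIT probes (COL16A1 and COL19A1), 1 of 3 transmembrane probes (COL13A1) and 1 of 2 multiplexin probes (COL18A1) rose, beside 22.8% of all probes. COL16A1, a FACIT collagen found near basement membranes, was at 7.47 SD and under 3 SD on plastic and at 15.3, 28.5 and 38.4 SD on crECM. It rose at least 5.43-fold (log2 change 2.44 with a standard error of 0.37, adjusted p = 0.00031, limma), and had a log2 change of 1.78 without plastic replicate 2, 1.74 with rebuilt values (3.35-fold) and 1.37 with quantile normalization (2.58-fold). COL13A1, a collagen that spans the cell membrane at adhesion sites, was under 3 SD on both plastic arrays and at 7.52, 11.7 and 16 SD on crECM, and rose at least 3.8-fold (log2 change 1.93 with a standard error of 0.26, adjusted p = 0.00012, limma). Its log2 change was 0.67 with values rebuilt from the raw intensities (1.59-fold, adjusted p = 0.046) and 0.75 with quantile normalization (1.68-fold). COL18A1, the multiplexin whose end fragment is endostatin, was at 9.04 and 9.68 SD on plastic, at 16, 28.6 and 38.6 SD on crECM, and rose 2.91-fold (log2 change 1.54 with a standard error of 0.28, adjusted p = 0.0011, limma). It was above 3 SD of the raw noise on neither plastic array (raw intensities of 49.8 and 46). Its log2 change was 0.82 with quantile normalization (adjusted p = 0.031, limma) and 1.84 with rebuilt values. COL15A1, the other multiplexin, was at 43.2 and 44.7 SD on plastic and at 14.8, 26.1 and 59.6 SD on crECM, and did not pass (log2 change -0.68, adjusted p = 0.15, limma). For COL16A1, COL13A1 and COL18A1, no crECM array overlapped with plastic, an order found for 21.5% of all probes on the deposited scale.

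COL19A1, a FACIT collagen, rose 1.56-fold (log2 change 0.64 with a standard error of 0.22, adjusted p = 0.033, limma). Its crECM values began at 11.9 SD, just above the plastic values of 10.4 and 11.2 SD, and with quantile normalization the log2 change was 0.09 (adjusted p = 0.69). The call was also lost without plastic replicate 1 (0.16) or replicate 2 (0.11). COL7A1, the anchoring fibril that ties the epithelial basement membrane to the stroma, did not pass. It was at the lowest value of the array on both plastic arrays and at 12 h, at 1.85 SD on day 7 and at between 4.21 and 13 SD on the other days. Its log2 change was 1.10 (adjusted p = 0.10, limma), with both plastic arrays and the 12 h and day 7 arrays set to the floor. It was 0.25 with rebuilt values (adjusted p = 0.37, limma) and 0.25 with quantile normalization (adjusted p = 0.33). Without the 12 h and day 7 arrays together, a choice made after seeing the data, it was 1.42 (adjusted p = 0.0087, limma). These are the crECM arrays on which COL7A1 was at the floor, so leaving them out had to raise the change. Of all probes, 29% had their lowest crECM value on those arrays. Those 2 arrays also had the lowest raw medians of the crECM arrays, 224 and 250, and their part in the result was not tested. In raw intensity COL7A1 was at -25.6 and -56.1 on plastic and at 28.8 on the lowest crECM array, without overlap.

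The chains of the classical fibrils went both ways. COL1A1, the main chain of type I collagen, was at 24.7 and 19.1 SD on plastic and at 22.2, 36 and 38.7 SD on crECM, with the day 8 array within the plastic range. It rose 1.51-fold (log2 change 0.60 with a standard error of 0.19, adjusted p = 0.026, limma), a call lost without either plastic array (adjusted p = 0.051 and 0.29) with array weights (0.096) and with quantile normalization (0.078). COL1A2, the other chain of type I, was at 7.42 and 6.74 SD on plastic and under 3 SD on every crECM array. It was called lower by at least 2.36-fold (log2 change -1.24 with a standard error of 0.05, adjusted p = 4.2e-09, limma). The COL1A2 probe was above 3 SD of the raw noise on none of the 11 arrays, its raw median on crECM, 51.9, was above the 38.5 and 27.8 on plastic, and with no floor the call was lost (adjusted p = 0.27, limma).

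COL3A1, the type III fibril, had a pair of probes. Probe 1, from the RefSeq transcript, was at 48.6 and 53.6 SD on plastic and at 26.4, 35 and 46.8 SD on crECM, and fell 1.47-fold (log2 change -0.56 with a standard error of 0.16, adjusted p = 0.015, limma), a call lost without plastic replicate 1 (0.069) or replicate 2 (0.16). Probe 2, from another cDNA record, was at 8.96 and 9.59 SD on plastic and under 3 SD on all crECM arrays, and was called lower by at least 3.09-fold (log2 change -1.63 with a standard error of 0.05, adjusted p = 2.3e-09, limma). COL5A2, a chain of type V collagen that sets the width of type I fibrils, was at 33.2 and 33.6 SD on plastic, at 22.3, 24.7 and 26.9 SD on crECM, and fell 1.36-fold (log2 change -0.45 with a standard error of 0.09, adjusted p = 0.0022, limma). The 3 probes of COL27A1, a cartilage fibril chain, differed in direction. Probe 1 fell 1.67-fold (log2 change -0.74, adjusted p = 0.0012), probe 2 rose 2.09-fold from 4.4 and 4.47 SD (log2 change 1.06, adjusted p = 0.027), and probe 3 had a log2 change of -0.10 (adjusted p = 0.60, limma). The call of probe 2 was lost in 7 of 21 alternatives, among them either plastic array left out (0.14 and 0.15). COL2A1, COL5A1, COL5A3 and COL11A1 did not pass.

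FACIT chains sit on the surface of cartilage and other fibrils. Of their 11 probes 2 rose, as above, and 5 fell, 63.6% called beside 45.2% of all probes. COL9A1, of type IX, was at 32.7 and 30.2 SD on plastic and at 20.2, 22.1 and 25 SD on crECM, and fell 1.42-fold (log2 change -0.51 with a standard error of 0.11, adjusted p = 0.0025, limma). COL9A3 was at 6.67 and 10.2 SD on plastic and no higher than 4.75 SD on crECM, and was called lower by at least 2.55-fold (log2 change -1.35, adjusted p = 0.00017, limma). Probe 1 of COL9A2 fell 1.53-fold (log2 change -0.62, adjusted p = 0.0059, limma), while probe 2, under 3 SD on both plastic arrays and at up to 11.6 SD on crECM, had a log2 change of 1.17 and did not pass (adjusted p = 0.097). COL21A1 fell 1.35-fold (log2 change -0.44, adjusted p = 0.0059, limma). Without plastic replicate 1 the calls of COL21A1 (0.058) and of COL9A2 probe 1 (0.061) were lost, the latter also without replicate 2 (0.051). Probe 2 of COL12A1 was called lower by at least 1.98-fold from 5.99 and 5.89 SD (log2 change -0.98, adjusted p = 6.3e-09, limma), and probe 1 did not pass (log2 change 0.67, adjusted p = 0.40).

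Among the network-forming collagens, probe 1 of COL8A1, a chain of vessel and corneal membranes, was at 40.4 and 44 SD on plastic and at 17.7, 22.7 and 26.6 SD on crECM, without overlap. It fell 1.84-fold (log2 change -0.88 with a standard error of 0.14, adjusted p = 0.00051, limma). On the deposited scale 25.3% of all probes had every crECM array below both plastic arrays. Probe 2 of COL8A1, at 8.05 and 6.47 SD on plastic, did not pass (log2 change -0.53, adjusted p = 0.41), and neither did COL10A1 of growth plate cartilage, COL15A1, COL14A1, COL20A1, COL23A1 or COL25A1. Among the probes not called, COL23A1, which spans the cell membrane, was the closest to the limit (log2 change 1.37, adjusted p = 0.061, limma).

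The raw intensities set the called probes apart into 3 kinds. For all 11 probes that rose, each crECM array had a raw intensity above both plastic arrays, which held for 54.8% of all probes and for 20 of the 42 collagen probes. The reverse order held for 1.08% of all probes and for 0 of the 42. Of these 11 probes, 9 were above 3 SD of the raw noise on all 9 crECM arrays, 7 were above it on neither plastic array and 1, COL6A3, on both. COL4A3, for example, had raw intensities of 14.6 and 0.7 on plastic and of 216 to 526 on crECM. Of the 11 probes that fell, 7 were above the raw noise on all 11 arrays, and their raw intensities overlapped between the substrates. COL8A1 probe 1 had 394.4 and 404.8 on plastic and 239 to 485 on crECM. Without the regression between arrays, the log2 changes of these 7 probes were between 0.08 and 0.65 and so of the opposite sign, since the median of all probes was then 1.07. Their fall is therefore a fall relative to the other probes of an array. Among 59 tested smell and taste receptor probes, 30 fell (50.8%) and 2 rose (3.39%), with a median log2 change of -0.44. The share that fell was 26.8% of the collagen probes and 22.4% of all probes. The other 4 collagen probes that fell were COL1A2, COL9A3 and probe 2 of COL3A1 and of COL12A1. These 4 collagen probes were above 3 SD of the raw noise on none of the 11 arrays. They had raw intensities of 23.1 to 49.4 on plastic and of -56.2 to 145 on crECM, and they fell under the filter and were not tested with rebuilt values. With no floor the calls of these 4 were lost (adjusted p between 0.098 and 0.27, limma). For COL1A2 and the COL3A1 and COL12A1 probes every crECM array was at the floor, which leaves that group without spread and their standard errors small, at 0.04 to 0.05.

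**Figure D4:**
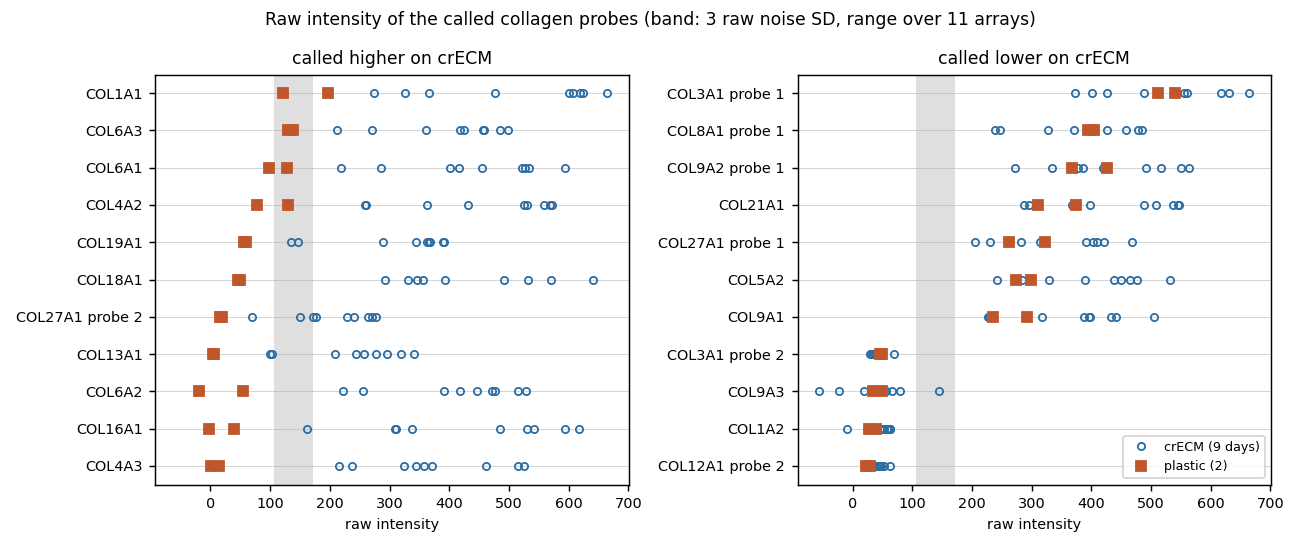
Raw intensity of the 11 collagen probes called higher and the 11 called lower on crECM, on the 2 plastic arrays (filled squares) and the 9 crECM arrays (open circles). The gray band spans 3 SD of the raw noise over the 11 arrays, and the substrates were apart for every probe on the left and overlapped for every probe on the right, where 4 probes lay at or below the band.

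Calls in all 21 alternatives were kept by 6 of the 22 called probes, all of them higher on crECM: COL4A2, COL4A3, COL6A2, COL13A1, COL16A1 and COL18A1. One alternative, values rebuilt without the regression, called 13849 of all probes higher and 80 lower, and 0 collagen probes lower. No collagen probe that fell could therefore be among the 6. COL5A2, COL8A1 probe 1, COL9A1 and COL27A1 probe 1 were called lower in 20 of 21 alternatives and lost only there. COL13A1 was called higher there at a log2 change of 0.95, below the median of 1.07 over all probes. By the criteria of the study, a probe is off-on when its mean log10 value is below 0 on plastic and above 1 on crECM. COL4A3, COL6A2 and COL16A1 were off-on, 3 of 42 probes beside 3.97% of all probes, and none was on-off, beside 0.41%. In each of the 3, plastic replicate 2 was at the lowest value of its array while replicate 1 was at 3.29, 9.75 and 7.47 SD, so the off state rests on that array. Without plastic replicate 2, only COL13A1 was off-on.

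Within the time course little separated the days. By limma, 0 of 41 collagen probes had a trend over log2 of the day, beside 0.00466% of all probes, and 4 had an unadjusted p under 0.05, beside 8.47% of all probes. The lowest adjusted p was 0.47, of COL27A1 probe 2. Comparing the 12 h array with the 8 later ones, COL9A3 was called, 1 of 41 beside 6.23% of all probes, 3.54% higher and 2.69% lower at 12 h (log2 difference 0.63 with a standard error of 0.10, adjusted p = 0.011, limma), and 6 had an unadjusted p under 0.05, beside 19.2% of all probes. COL9A3 was at 4.75 SD at 12 h, and its raw intensity there was within the noise. The lone 12 h array is assumed to vary like the others. The call was lost with a floor of 5 SD, with rebuilt values and with quantile normalization. COL4A3 was at 21.9 SD at 12 h, its crECM median, and COL18A1 at 38.6 SD, its highest value.

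The enzymes that modify, fold, trim and cross-link collagen chains had 29 probes, of which 28 were tested. Of these, 12 rose, 5 fell and 11 did not pass, 60.7% called beside 45.2% of all probes, and the median log2 change was 0.44 beside 0.06. PLOD3, which hydroxylates lysine and adds sugars to it, was under 3 SD on both plastic arrays and above on all 9 crECM arrays, and rose at least 4.41-fold (log2 change 2.14 with a standard error of 0.38, adjusted p = 0.00093, limma). BMP1, which cuts off the end of fibrillar procollagens, was at the lowest value of the array on both plastic arrays and rose at least 4.08-fold (log2 change 2.03 with a standard error of 0.26, adjusted p = 7.3e-05, limma). LOX, which starts the cross-links between chains, was also at the lowest value on plastic and rose at least 3.9-fold (log2 change 1.96 with a standard error of 0.22, adjusted p = 2.7e-05, limma). Each of these 3 had all crECM arrays above both plastic arrays, as did 21.5% of all probes on the deposited scale. All 3 were within the raw noise on plastic, and their sizes were set by the floor. With rebuilt values PLOD3 was 1.87-fold, BMP1 1.7-fold and LOX 1.63-fold higher (adjusted p = 0.027, 0.017 and 0.02, limma), and with quantile normalization 1.9-fold, 1.76-fold and 1.69-fold.

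Of the 5 probes that fell, 2 were of SERPINH1, the chaperone of procollagen in the endoplasmic reticulum. One was called at a log2 change of -1.18 with every crECM array under 3 SD and no array above the raw noise (adjusted p = 2e-06), and the other, at 75 and 73.3 SD on plastic, at -0.48 (adjusted p = 0.0015, limma). PLOD2, which hydroxylates lysine at the chain ends, fell with a log2 change of -0.69 (adjusted p = 0.0064, limma). CRTAP, of the prolyl 3-hydroxylation complex, had one probe that fell (log2 change -0.55, adjusted p = 0.0015) and one that rose (0.41, adjusted p = 0.028, limma). Without the regression between arrays, PLOD2 and the lower CRTAP probe had the opposite sign (0.12 and 0.30).

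**Figure D5:**
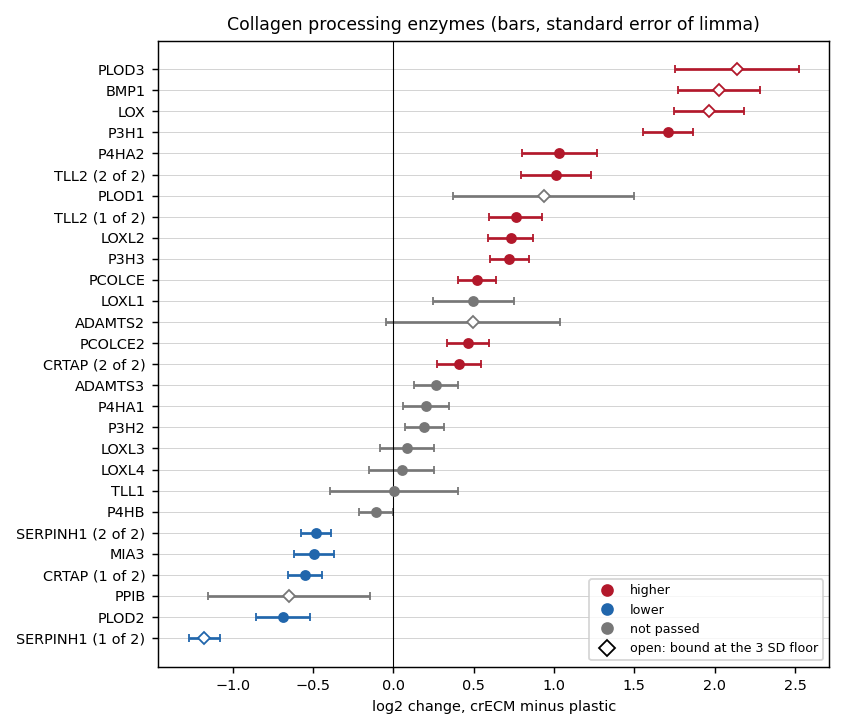
Log2 change between plastic and crECM of the 28 tested probes of collagen processing enzymes, with the standard error of limma as bars and colors and open diamonds as in the plot of collagen changes. PLOD3, BMP1 and LOX were at 2.14, 2.03 and 1.96, all set by the floor of 3 SD, and both SERPINH1 probes were on the lower side.

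Of 9 tested probes for collagen receptors, 1 rose and 3 fell, 44.4% called beside 45.2% of all probes. MRC2, which takes up collagen fragments into the cell, rose with a log2 change of 0.95 (adjusted p = 0.0016, limma). ITGA1, a collagen-binding integrin chain, fell with -0.82 (adjusted p = 9.7e-05, limma). ITGA2, another, was called lower at -1.04 (adjusted p = 2.5e-05), but was above 3 SD of the raw noise on none of the 11 arrays, with raw intensities of 40.5 and 18.2 on plastic and 23.7 to 53.2 on crECM, and with no floor the call was lost (0.087). DDR1, a tyrosine kinase that binds collagen, fell with -0.44 (adjusted p = 0.022, limma), and had 0.10 without the regression. Of 15 probes for matrix proteins that bind collagen, 3 rose and 2 fell, 33.3% called, below the 45.2% of all probes. MATN2, NID2 and BGN rose, with log2 changes of 0.94, 0.67 and 0.32 (adjusted p = 0.003, 0.00014 and 0.049, limma). Of these, MATN2 was above 3 SD of the raw noise on neither plastic array (raw intensities of 82.8 and 87). Matrilins such as MATN2 bridge collagens, NID2 links type IV collagen to laminin, and BGN is a small proteoglycan that binds fibrils. TNXB, which binds fibrils in skin and tendon, and MATN4 fell, with -1.50 and -0.81 (adjusted p = 0.0091 and 0.0077), the former within the raw noise on plastic and lost with rebuilt values (log2 change -0.11, adjusted p = 0.51), the latter 0.19 without the regression. Of 6 tested collagenases 1 rose and 1 fell, also 33.3%. MMP14, which cuts fibrillar collagen at the cell surface, rose 2.14-fold (log2 change 1.10, adjusted p = 0.00049, limma). It was above 3 SD of the raw noise on neither plastic array (raw intensities of 73.7 and 36.5). MMP9, which cuts type IV collagen, was called lower at -1.29 from 5.38 and 9.95 SD (adjusted p = 4.6e-05, limma), with no array above the raw noise.

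Markers of other cells were examined beside these values. Keratins KRT7, KRT18 and KRT19, which mark simple and urothelial epithelium, were far above 3 SD on every array, and 15 of 16 urothelial and epithelial probes had a mean above 3 SD on plastic and 12 on crECM. Of the 15 tested, 1 rose (PSCA) and 3 fell (CDH1, KRT13 and KRT20), 26.7% called beside 45.2% of all probes. Of 15 tested fibroblast and mesenchymal probes, 3 rose (PDGFRB, TAGLN and one of FAP) and 3 fell (THY1, S100A4 and one of ACTA2), 40% called. The S100A4 and ACTA2 probes called lower, like KRT13 and KRT20, were above 3 SD of the raw noise on none of the 11 arrays. PSCA, PDGFRB, TAGLN and the FAP probe that rose were above it on neither plastic array. On the deposited scale PSCA and PDGFRB were under 3 SD on both plastic arrays. The summed level of the mesenchymal probes ranged from 248.8 to 257.9 SD on plastic and from 230.9 to 279.6 SD on crECM. TWIST1, a mesenchymal regulator, was under 3 SD on all 11 arrays. VIM and a probe of POSTN were under 3 SD on both plastic arrays and above it on 6 and 5 of the crECM arrays. A probe of PDGFRA was above 3 SD on both plastic arrays and on 1 crECM array. These VIM, POSTN and PDGFRA probes did not pass, and the median log2 change of the 15 mesenchymal probes was -0.18. Of 5 endothelial probes, 2 rose (VWF and CDH5) and 1 fell (KDR), 60% called, and their summed level ranged from 84.1 to 85.3 SD on plastic and from 90.6 to 117 SD on crECM. VWF and CDH5 were above 3 SD of the raw noise on neither plastic array, and VWF was under 3 SD on both on the deposited scale. The part of other cell types in the collagen values was not tested.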

How the data were processed

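Cy3-labeled cDNA of RT4 cells was measured on glass arrays carrying oligos of about 70 bases. The values deposited by the authors were the raw intensity of each spot and log10 values in SDs of the noise, which they had scaled between arrays with a robust regression. The main measure was the deposited log10 value. The zero point of each array was found by setting the deposited against the raw intensity values. Its noise was taken from the spread of the raw intensities below that zero point. Collagens were taken from the annotation table, in which 17043 of 22464 probes had 1 symbol, 172 several and 5249 none, and all 42 collagen probes matched GRCh38.p14 by gene identifier. A probe with several symbols, one of them a collagen, was left out.

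Tests used limma 3.58.1 in R 4.3.3 (eBayes with trend) on log2 values floored at 3 SD, for the 21480 probes that passed 3 SD on 2 or more arrays, with Benjamini-Hochberg adjustment over all of them. A fold is a ratio of geometric means of floored values, taken from the difference of the log2 means. Where an array of the lower group was under the floor and none of the higher group was, it is a lower bound on the deposited scale only. The fit was tested on simulated data. The type IV pairs were compared by an exact permutation test, and Python 3.11.15 was used for counts.

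The members and gene lists were chosen with earlier results of these data known. Named were all called collagen probes, the type IV chains, COL1A1, COL1A2, COL3A1, COL7A1 and COL18A1, off-on probes, and from each pathway list the 3 largest called changes in either direction. Other genes, among them markers and the collagens next to the limit, were named after their values were seen. Alternatives were other floors and filters, values rebuilt from raw intensities with and without the regression, quantile normalization, array weights and each array left out. Leaving out the 12 h and day 7 arrays together was chosen after seeing the data. Precision is limited by the number of arrays. Protein sequences were not analysed here.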

Additional observations from a re-analysis of the deposited data

Results flagged for a closer look

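Among 38 collagen probes above the floor on crECM, 5 passed Dixon's test for 1 crECM array apart from the other 8. For values with a normal distribution chance gives about 1 in 20, or 1.9 of 38, and values at the floor depart from that. The share of all probes that pass the same test is not given here. The count is therefore not a result about collagens. COL14A1, a FACIT collagen, was at 22.7 SD on day 3 and between 34 and 45.1 SD on the other days. COL25A1, which spans the membrane of nerve cells, was at 12.2 SD on day 6 and between 18.9 and 28.8 SD otherwise. COL27A1 probe 1 was at 15.9 SD on day 8 and between 19.4 and 22.6 SD otherwise. COL2A1, the fibril of cartilage, was at 4.38 SD on day 2 and between 15.5 and 31.8 SD otherwise. COL9A3 was at 4.75 SD at 12 h, day 0.5, and between the floor of 3 SD and 3.68 SD on the other days. Its range is set by the floor, at which 7 of its 9 crECM values lay, and in raw intensity day 3 (145.2) was above 12 h (79.4).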

How the results depend on the processing

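With values rebuilt without the regression, 25 collagen probes were higher and 0 lower (11 and 11 as reported), all 6 type IV probes and 9 at 12 h were called, and 20 had a plastic mean above 3 SD (34). That setting moves the median of all probes to 1.07, and it turned the sign of COL3A1 probe 1 (0.21), COL4A1 (0.78), COL4A4 (0.80), COL4A5 (0.61), COL5A2 (0.65), COL8A1 probe 1 (0.0754), COL9A1 (0.64), COL9A2 probe 1 (0.31), COL21A1 (0.55), COL27A1 probe 1 (0.38), CRTAP (0.30), DDR1 (0.10), MATN4 (0.19) and PLOD2 (0.12). With a plastic array left out COL4A4 was between -0.24 and 0.00614. With quantile normalization 6 probes were higher and 1 was off-on. With no floor, and with rebuilt values, 7 were lower. At 12 h, 0 were called with a floor of 5 SD, rebuilt values or quantile normalization. With each array left out, between 7 and 13 were higher, 8 and 12 lower, 4 and 8 fibrillar probes were called, 1 and 3 were off-on and 0 and 1 on-off. Without either plastic array 7 were higher and 4 fibrillar probes were called. No paired analysis was possible because only the plastic arrays carry replicate numbers in the labels.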
